A study of Homo sapiens with 12 samples.

Results

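The 7 mature miRNAs described here are hsa-miR-3182, hsa-miR-10525-3p, hsa-miR-1257, hsa-miR-3913-3p, hsa-miR-3917, hsa-miR-4645-3p and hsa-miR-4743-5p, written below without the prefix for human. They were chosen by their measured reads, which were higher in cells given a DROSHA variant called m4 than in cells given wild type DROSHA. They are 7 of the 1277 miRNAs in the deposited count table, and all 7 were among the 310 miRNAs with enough reads to be tested. The choice used the fitted difference between m4 and wild type, so every value of that contrast is given below as a description of the choice. The questions asked were whether the 7 miRNAs changed when another DROSHA variant was supplied to cells without DROSHA, and how far their values hung on the way the libraries were scaled. The groups compared for the other variant were not in the contrast of the choice, but the choice still bears on the answer. Most miRNAs listed below as made through DROSHA were lower with m4 than with wild type, so the choice tends to pass over such miRNAs.

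The cells behind all 12 libraries were HCT116, a line from a human colorectal carcinoma, with the DROSHA gene knocked out (DROSHA-KO). All cells also received 4.5 µg of the plasmid pXC-NLS-DG4, so the controls carried it too. The m4 group received 4.5 µg of pCK-DROSHA_m4, the belt deletion group 4.5 µg of pCK-DROSHA_belt_deletion and the wild type group 4.5 µg of pCK-DROSHA wild type. The empty group received the pCK empty plasmid, whose amount the labels do not state. Each group had 3 libraries, and the belt deletion and the empty group share no library with the contrast behind the choice. The labels state neither which residues m4 alters, nor what DG4 encodes, nor whether the knockout line is 1 clone. They also do not say whether repeats were separate cultures, so p-values measure only the spread between these libraries, which may be technical. Libraries were made from small RNA of 19 to 24 nt, cut from a 15% gel loaded with 10 µg of total RNA.

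DROSHA is the nuclear RNase III enzyme of the Microprocessor, in which it works with the double-stranded RNA-binding protein DGCR8. It cuts the hairpin out of a primary transcript, and DICER then cuts the hairpin in the cytoplasm to give the mature miRNA. Some miRNAs reach DICER without DROSHA: mirtrons are hairpins released by splicing, and a few others begin at a transcription start site or derive from snoRNA or tRNA. In colorectal and other tumour cells the abundant miRNAs, such as miR-21 and the let-7 family, are made through DROSHA.

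The mature sequences are shown because they separate the 7 miRNAs from one another and because 2 of them bear on what the counts can mean. They are given 5′ to 3′ as RefSeq lists them on GRCh38.p14, with the seed, bases 2 to 8, in capitals. miR-3913-5p, the other arm of the miR-3913 hairpins, is included for comparison.
miR-3182: gCUUCUGUaguguaguc
miR-10525-3p: uGACUAUGaugugcaccugau
miR-1257: aGUGAAUGauggguucugacc
miR-3913-3p: aGACAUCAagaucagucccaaa
miR-3913-5p: uUUGGGACugaucuugaugucu
miR-3917: gCUCGGACugagcagguggg
miR-4645-3p: aGACAGUAguucuugccugguu
miR-4743-5p: uGGCCGGAugggacaggaggcau
The 7 seeds were all different, and no other mature human miRNA of the RefSeq table carried the seed of a member. miR-3182 has 17 nt, below the stated gel window of 19 to 24 nt. Of the 310 tested miRNAs, 271 had a sequence, with a median length of 22 nt, and 5 of these (1.85%) were shorter than 19 nt. miR-3913-3p and miR-3913-5p pair with each other over 22 of 22 bases.

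The hairpins of MIR3182 and MIR3913-1 are shown, with the mature arms in capitals, because they are the extremes of the set in predicted folding.
MIR3182: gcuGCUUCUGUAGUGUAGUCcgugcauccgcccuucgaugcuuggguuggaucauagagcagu
MIR3913-1: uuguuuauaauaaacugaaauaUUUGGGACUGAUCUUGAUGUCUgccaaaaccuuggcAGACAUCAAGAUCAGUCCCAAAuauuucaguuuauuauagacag
RNAfold gave the MIR3182 hairpin a minimum free energy of -0.397 kcal/mol per nt and the MIR3913-1 hairpin one of -0.774. The other hairpins of the set with a sequence lay between these, at -0.741 for MIR3913-2, -0.655 for MIR4645, -0.500 for MIR4743, -0.454 for MIR10525 and -0.416 for MIR3917. Over 221 hairpins of tested miRNAs the median was -0.446 and the quartiles were -0.506 and -0.371. MIR3913-1, MIR3913-2 and MIR4645 lay beyond the strongly folded quartile, and the other 4, MIR3182 included, lay between the quartiles.

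The 7 miRNAs lie at unlinked places in the genome. miR-3182 (chr16:83508349-83508365, + strand) lies in an intron of CDH13, which encodes the membrane-anchored T-cadherin. miR-10525-3p (chr7:74596006-74596026, + strand) lies in an intron of GTF2IRD1, a transcription factor gene, and miR-4743-5p (chr18:48670602-48670624, + strand) in an intron of CTIF, a translation initiation factor gene. All 3 have the orientation of their host gene. miR-1257 (chr20:61953621-61953641, - strand) lies in an exon of TAF4, a subunit gene of the transcription factor TFIID, and miR-3917 (chr1:25906384-25906403, - strand) in an exon of STMN1, which encodes the microtubule regulator stathmin. GENCODE marks both of these exon stretches as untranslated. miR-4645-3p (chr6:2854040-2854061, - strand) overlaps no gene other than its own, and the nearest protein-coding gene is SERPINB1, a protease inhibitor gene, at 12034 bases.

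miR-3913-3p comes from hairpins on opposite strands of the same stretch. MIR3913-1 gives it at chr12:69584744-69584765 on the - strand and MIR3913-2 at chr12:69584780-69584801 on the + strand, and the hairpins overlap by 100 bases. The nearest protein-coding gene is the chaperonin subunit gene CCT2, at 569 and 533 bases. All 4 lines of the count table for these hairpins, of either arm, held the same reads in each library. The strand and the arm behind the count of miR-3913-3p therefore cannot be told apart.

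Table reads per library ranged over 132667 to 298695 with m4, 286810 to 407461 with the belt deletion, 217141 to 359390 with wild type and 269550 to 372985 with the empty plasmid. The number of miRNAs detected was 649 to 698 with m4, and between 670 and 800 in the other groups. Reads were scaled with size factors taken from 5 hairpin families known to be made without DROSHA (miR-1226, miR-1224, miR-877, miR-484 and miR-320), since most other miRNAs need DROSHA to be made. These families did not all move together. The log2 ratio of mean scaled reads, m4 over wild type, was 0.69 for miR-1224 and -0.08 to 0.03 for the others. For the belt deletion over empty it was -0.68 for miR-484, -0.23 for miR-320, -0.04 for miR-877, 0.24 for miR-1226 and 0.43 for miR-1224. Of 5 markers of intestinal epithelium, 2 were detected in every library. The summed level of all 5 was 102 to 140.8 scaled reads with m4, 68.6 to 212 with the belt deletion, 69.9 to 122.3 with wild type and 46.5 to 59.4 with the empty plasmid. Of 7 markers of other cell types, 4 were detected in every library and 2, miR-124-3p of neurons and miR-223-3p of myeloid cells, in none. The summed level of these 7 was 324 to 628 with m4, 569 to 785 with the belt deletion, 479 to 696 with wild type and 216 to 292 with the empty plasmid. These markers are themselves miRNAs, in cells whose DROSHA differs between groups. By edgeR at an adjusted p under 0.05, 2 of 2 tested intestinal markers rose with the belt deletion against empty. Of the 4 tested markers of other cells, 2 rose and 0 fell. miR-126-3p averaged 404 ± 77.5 scaled reads with the belt deletion and 9.44 ± 2.30 with the empty plasmid (SD, n = 3 each). The sums cannot tell a difference in cells from one in DROSHA supply. The part of other cells in the results below was not tested. In bulk libraries such as these, fewer cells making a miRNA and less of it per cell cannot be told apart.

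miR-3182 was the member with the most reads. It had 533, 267 and 422 scaled reads with m4 (replicates 1, 2 and 3), 109, 222 and 58.9 with the belt deletion, 142, 227 and 114 with wild type, and 111, 103 and 98.9 with the empty plasmid. The m4 libraries lay above every other library, while the other groups reached into one another except that wild type lay above empty. The belt deletion libraries spread widely, with 3.77 times more in the highest than in the lowest, against 1.13 times in the empty group. As raw reads the empty libraries were almost equal, at 148, 148 and 149.

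The other intronic members had fewer reads. miR-10525-3p had 53.7, 84.1 and 157 scaled reads with m4, 90.6, 108 and 61.4 with the belt deletion, 58.3, 45.0 and 43.9 with wild type, and 66.2, 60.5 and 53.1 with the empty plasmid. Its m4 and wild type groups overlapped, since m4 replicate 1 lay below wild type replicate 1. miR-4743-5p had 8.59, 10.2 and 20.5 scaled reads with m4, 16.7, 6.27 and 10.2 with the belt deletion, 2.38, 3.60 and 4.51 with wild type, and 3.76, 10.4 and 6.64 with the empty plasmid. Its wild type libraries were the low ones: their raw reads were 2, 2 and 4, against 5, 15 and 10 with the empty plasmid, and m4, the belt deletion and empty overlapped.

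The exonic members behaved unlike each other in depth. miR-1257, in TAF4, had 79.4, 76.7 and 107 scaled reads with m4, 98.5, 96.6 and 58.9 with the belt deletion, 45.2, 36.0 and 54.1 with wild type, and 68.5, 44.5 and 66.4 with the empty plasmid. The m4 and belt deletion libraries covered much the same range, and both lay above wild type. miR-3917, in STMN1, had 12.9, 22.2 and 43.5 scaled reads with m4, 12.3, 21.3 and 7.68 with the belt deletion, 4.76, 7.20 and 18.0 with wild type, and 6.77, 5.56 and 7.97 with the empty plasmid. Wild type replicate 3 reached into the m4 range, so that miR-3917 and miR-10525-3p were the members whose m4 and wild type groups overlapped on scaled reads. On raw reads miR-3917 was the only one.

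All 7 members averaged highest with m4, as the choice favours, and so did those outside other genes. miR-3913-3p had 54.7, 65.6 and 125 scaled reads with m4, 59.8, 51.4 and 25.6 with the belt deletion, 42.8, 28.8 and 40.6 with wild type, and 32.3, 41.0 and 40.5 with the empty plasmid. miR-4645-3p had 15.0, 20.3 and 34.5 with m4, 7.92, 13.8 and 5.12 with the belt deletion, 5.95, 8.99 and 4.51 with wild type, and 4.51, 7.65 and 5.98 with the empty plasmid. For both, the m4 groups lay above wild type and empty, which overlapped each other. Apart from miR-3913-5p, whose reads equal those of miR-3913-3p, the opposite arms in the table had few reads: miR-4645-5p had 1 read over all libraries, and miR-4743-3p had 5 reads with m4, 1 with the belt deletion, 0 with wild type and 1 with the empty plasmid.

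**Figure D1:**
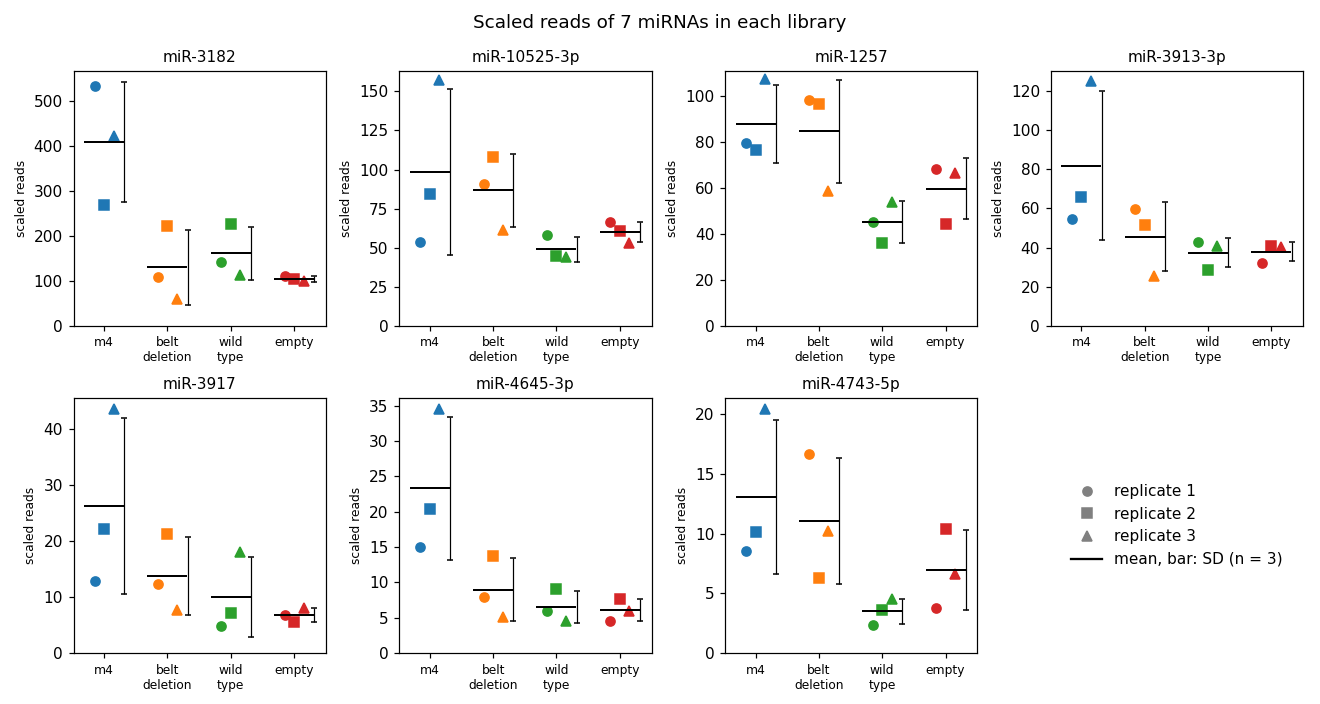
Scaled reads (y axis, linear from 0) of the 7 miRNAs in each of the 12 libraries, by group on the x axis, with m4 on the left and empty on the right. Points are libraries with the replicate number as the marker, the line is the mean and the bar the SD (n = 3). m4 replicate 3, the triangle, is the highest m4 library for 6 of the 7 miRNAs.

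The contrast behind the choice was m4 against wild type. The log2 fold changes, m4 over wild type, were 1.87 (SE 0.58) for miR-4645-3p, 1.84 (SE 0.69) for miR-4743-5p and 1.35 (SE 0.37) for miR-3182. They were 1.32 (SE 0.53) for miR-3917, 1.11 (SE 0.39) for miR-3913-3p, 1.00 (SE 0.38) for miR-10525-3p and 0.95 (SE 0.37) for miR-1257. The median of the 7 was 1.32, beside -0.19 over all 310 tested miRNAs. Mean levels were 408 ± 134 scaled reads with m4 and 161 ± 58.8 with wild type for miR-3182, and 23.3 ± 10.1 with m4 and 6.48 ± 2.29 with wild type for miR-4645-3p (SD, n = 3 each).

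Over all tested miRNAs, 11 (3.55%) passed the threshold of an adjusted p of 0.05 as higher with m4 and 106 (34.2%) as lower (edgeR's quasi-likelihood test with Benjamini-Hochberg adjustment). The 7 members are 7 of those 11. The 4 that passed and are not members were miR-6761-5p at a log2 fold change of 1.56 (SE 0.55), miR-6842-3p at 0.93 (SE 0.38), miR-6515-5p at 0.96 (SE 0.39) and miR-6505-5p at 0.96 (SE 0.40). The members nearest to the threshold were miR-3917 and miR-1257, and the miRNA just outside was miR-6735-5p at 1.08 (SE 0.46). On scaled reads the m4 and wild type groups did not overlap for 5 of the 7 members, where 8.39% of tested miRNAs lay wholly above wild type. On raw reads this held for 6 of the 7, where the share of tested miRNAs was 15.2%. These counts restate the choice and nothing is read from them.

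The comparison that the choice did not use was the belt deletion against the empty plasmid, which asks whether a DROSHA protein lacking that part changes a miRNA in DROSHA-KO cells. None of the 7 members passed the test, while 133 of 310 tested miRNAs (42.9%) rose and 1 (0.323%) fell. This is no independent measure of dependence on DROSHA. Of 14 tested miRNAs known to be made through DROSHA, 12 were lower and 0 higher with m4 than with wild type. A choice of miRNAs higher with m4 passes over these. The 4 miRNAs past the threshold of the choice that are not members did not pass either. Their log2 fold changes were 0.20 for miR-6761-5p, 0.51 for miR-6842-3p, 0.39 for miR-6515-5p and 0.46 for miR-6505-5p. miR-4645-3p and miR-4743-5p did not pass the filter on low reads when only the belt deletion and empty libraries were used, and were in the test through reads of the other groups, m4 among them, where the choice made them high. Their missing calls therefore say little, and in the fit of only those libraries 0 of the 5 members tested passed. None of the 7 had an unadjusted p under 0.05, and 0 of the 7 were called by DESeq2. For all 7 the belt deletion and empty groups overlapped, whereas 46.5% of tested miRNAs lay wholly higher and 3.87% wholly lower with the belt deletion. miR-3917 came nearest, with 13.8 ± 6.94 scaled reads with the belt deletion and 6.77 ± 1.20 with the empty plasmid (SD, n = 3 each), a log2 fold change of 0.97 (SE 0.54, adjusted p = 0.154 by edgeR).

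miR-3182 averaged 130 ± 83.5 scaled reads with the belt deletion and 104 ± 6.33 with the empty plasmid (SD, n = 3 each). Its log2 fold change, belt deletion over empty, was 0.31 (SE 0.37, adjusted p = 0.572 by edgeR, 95% interval -0.42 to 1.04). miR-10525-3p averaged 86.6 ± 23.5 with the belt deletion and 59.9 ± 6.56 with the empty plasmid, a log2 fold change of 0.53 (SE 0.37, adjusted p = 0.294 by edgeR). The belt deletion and empty groups overlapped for both miRNAs. The log2 fold change of miR-3182 was -0.31 without belt deletion replicate 2, its highest library there.

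The remaining members gave log2 fold changes of the same order. They were 0.69 (SE 0.56) for miR-4743-5p, 0.50 (SE 0.36) for miR-1257, 0.50 (SE 0.57) for miR-4645-3p and 0.26 (SE 0.38) for miR-3913-3p, with edgeR adjusted p of 0.382, 0.314, 0.553 and 0.669 in that order. Without belt deletion replicate 1 the value of miR-3913-3p was -0.01. The median of the 7 was 0.50, beside 0.73 over all tested miRNAs. A miss of the threshold does not show that a miRNA was unchanged: the upper 95% limits of the members ran from 1.02 for miR-3913-3p to 2.04 for miR-3917 on the log2 scale. The 133 miRNAs that rose had a median log2 fold change of 3.58, and 116 of them lay above 2.04, the highest of these limits. The lowest rise among the 133 was 0.97, below the upper limit of every member.

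**Figure D2:**
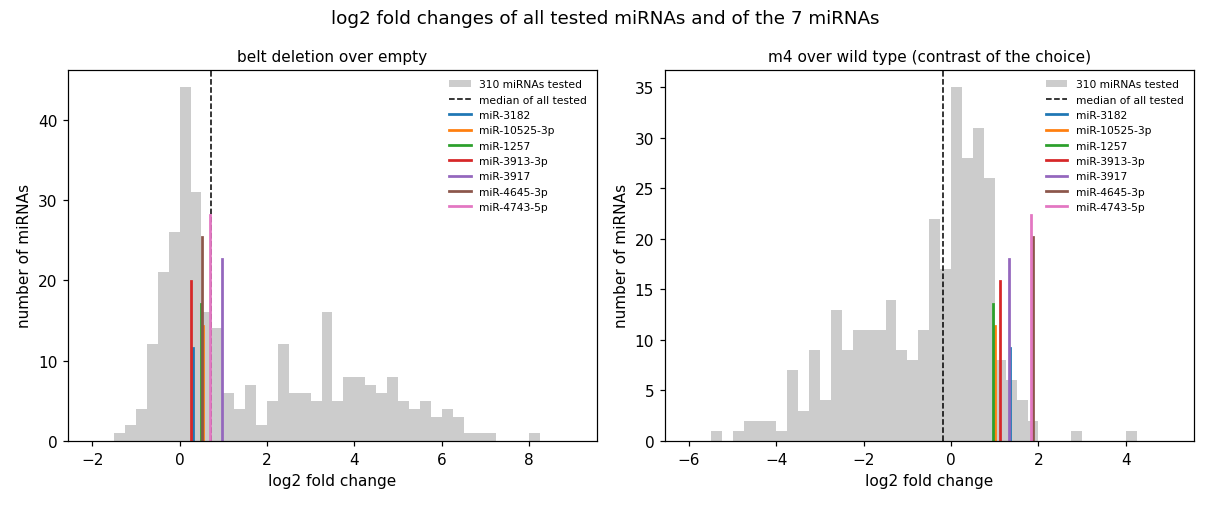
Number of tested miRNAs (y axis) by log2 fold change (x axis) for the belt deletion over empty (left) and m4 over wild type (right), with the 7 miRNAs as coloured lines and the median of all 310 tested as a dashed line. On the left the 7 lie between 0.26 and 0.97, with 1 of them above the median of 0.73. On the right, the contrast of the choice, they lie between 0.95 and 1.87.

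Lists of miRNAs of known origin, measured in the same comparison, place these values. Of 14 tested miRNAs made through DROSHA (the let-7 family, the miR-17-92 cluster, miR-21 and miR-16), 14 rose with the belt deletion, with a median log2 fold change of 3.27. miR-21-5p, an abundant tumour-associated miRNA, averaged 74877 ± 6226 scaled reads with the belt deletion and 2052 ± 364 with the empty plasmid (SD, n = 3 each), a log2 fold change of 5.19 (SE 0.41, adjusted p = 2.49e-19 by edgeR). let-7i-5p, of the growth-restraining let-7 family, had one of 5.95 (SE 0.40, adjusted p = 2.44e-22 by edgeR). Under scaling by total counts 13 of the 14 still passed, and under the other scalings tried 14 of 14 did.

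Of 15 tested miRNAs made without DROSHA, 1 rose, miR-320d, and 0 fell, and their median log2 fold change was -0.01. Part of this list set the scale, which draws its values towards 0. miR-320a-3p, from a hairpin that starts at a transcription start site, had a log2 fold change of -0.23 (SE 0.35). Of 5 tested miRNAs from snoRNA or tRNA, 1 rose, miR-1260b, and 0 fell, with a median of 0.18. miR-664a-5p, from a snoRNA, had a log2 fold change of 0.18 (SE 0.37). The members' values, 0.26 to 0.97, lay above the medians of these lists and below that of the list made through DROSHA. The median of all tested miRNAs, 0.73, did so too, and how the members are made was not tested. The direction of these lists moved with the scaling: their medians were -0.77 and -0.58 under TMM, where 6 of the 15 and 1 of the 5 fell.

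The other comparisons share libraries with the choice, so their values are given side by side with no test. Wild type over empty gave miR-3182 a log2 fold change of 0.62 (SE 0.37), miR-3917 one of 0.59 (SE 0.57) and miR-4645-3p one of 0.04 (SE 0.63). miR-3913-3p had -0.01 (SE 0.39), miR-10525-3p had -0.29 (SE 0.38), miR-1257 had -0.40 (SE 0.37) and miR-4743-5p had -0.97 (SE 0.70). For the members below 0, wild type libraries averaged less than the empty ones, as with miR-4743-5p at 3.49 ± 1.07 scaled reads with wild type and 6.94 ± 3.35 with the empty plasmid (SD, n = 3 each). The median of the 7 was -0.01, beside 0.72 over all tested miRNAs. The groups did not overlap for 1 of the 7, miR-3182, where 46.5% of tested miRNAs lay wholly higher with wild type. On raw reads its wild type libraries lay wholly below the empty ones. Its log2 fold change was -0.29 under TMM and 1.04 when scaled by the summed reads of the reference families. Since low wild type values were part of what the choice selected, these values are no independent measure of dependence on DROSHA.

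m4 over empty gave 1.96 (SE 0.37) for miR-3182, 1.91 (SE 0.51) for miR-3917, 1.91 (SE 0.53) for miR-4645-3p and 1.10 (SE 0.38) for miR-3913-3p. It gave 0.87 (SE 0.57) for miR-4743-5p, 0.71 (SE 0.37) for miR-10525-3p and 0.55 (SE 0.36) for miR-1257. For these last 3, wild type averaged less than empty, and the value was smaller than that of m4 over wild type. Scaling moved both comparisons with the empty plasmid: under TMM wild type over empty ran from -1.80 to -0.20 over the 7, and m4 over empty from -0.10 to 1.37 with 5 of the 7 above 0. The groups did not overlap for 5 of the 7, where 45.2% of tested miRNAs lay wholly higher with m4.

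The 2 variants did not give the members the same order. The belt deletion over m4 had a log2 value of -1.65 (SE 0.37) for miR-3182 and -1.40 (SE 0.53) for miR-4645-3p, the only 2 of the 7 whose belt deletion libraries lay wholly below m4, where 5.16% of tested miRNAs did. The values were -0.94 (SE 0.50) for miR-3917, -0.84 (SE 0.38) for miR-3913-3p, -0.18 for miR-10525-3p (SE 0.37), -0.18 for miR-4743-5p (SE 0.56) and -0.05 for miR-1257 (SE 0.36). For these last 3 the belt deletion and m4 differed by less than their error. The same 3 had belt deletion libraries that lay wholly above wild type, where 15.2% of tested miRNAs did. Their log2 values over wild type were 0.81 (SE 0.38), 1.66 (SE 0.69) and 0.90 (SE 0.37) in that order. The choice favoured high m4 and low wild type values, so nothing is read from these counts.

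A change of scaling moved the median of all tested miRNAs and the members with it, though not all by the same amount. It thus bore on where the members stood against 0. Under TMM, which assumes that most miRNAs do not change, the median m4 over wild type of all tested miRNAs shifted by 0.21 on the log2 scale, by 0.19 with the size factors of DESeq2 and by 1.05 under total counts. The members then ran from 1.11 to 2.03 under TMM, 1.11 to 2.01 with the DESeq2 factors and 1.98 to 2.88 under total counts, and 7 of 7 stayed past the threshold under each. The background moved with them: of 310 tested miRNAs, 43 passed as higher under TMM, 39 under DESeq2's factors and 133 under total counts. The share of higher among all calls was 9.4% under the scaling used here, 68.9% under total counts, 30.7% under TMM and 28.7% with the DESeq2 factors. Scaled by the summed reads of the reference families, 5 of the 7 passed, and with miR-320 left out of the reference 6 of the 7 did.

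The belt deletion over empty was moved the other way. The median over all tested miRNAs shifted by -0.75 under TMM, by -0.65 with the DESeq2 factors and by -0.77 under total counts. The members ran from -0.53 to 0.20 under TMM, with 1 of 7 above 0, from -0.44 to 0.29 under DESeq2 size factors, with 2 of 7 above 0, and from -0.54 to 0.21 under total counts, with 1 of 7 above 0. Scaled by the summed reads of the reference families they ran from 0.49 to 1.24. The sign of the members other than miR-3917 was thus a matter of the scaling in this comparison. miR-3917 stayed above 0, at 0.20 under TMM, 0.29 with the DESeq2 factors and 0.21 under total counts. None of the 7 passed the test in either direction under any of these scalings. Over all 116 values of the alternatives to this comparison, the adjusted p ran from 0.0777 to 0.993.

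**Figure D3:**
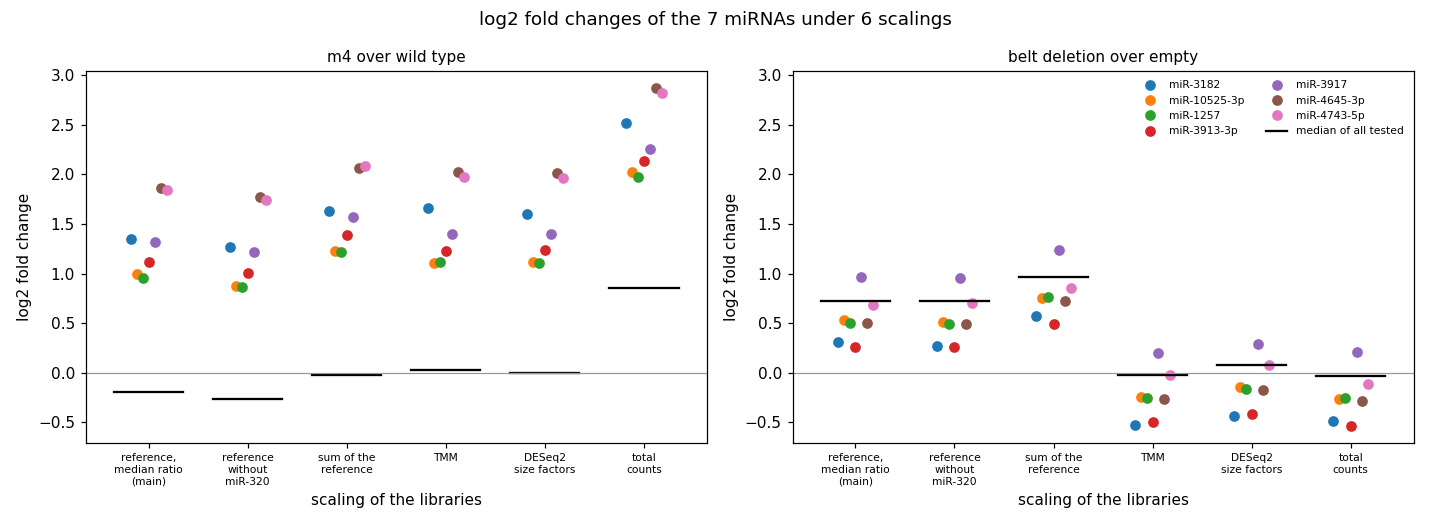
log2 fold change (y axis) of the 7 miRNAs, as coloured points, under 6 scalings of the libraries (x axis), for m4 over wild type (left) and the belt deletion over empty (right). Black bars give the median of all 310 tested miRNAs. On the left, the contrast of the choice, all points stay above 0. On the right most fall below 0 under total counts, TMM and the size factors of DESeq2, as the black bars fall too.

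Single libraries carried much of the m4 difference. The highest m4 library was replicate 3 for 6 of the 7 members and replicate 1 for miR-3182, and replicate 3 was also the highest for 178 of the 310 tested miRNAs (57.4%). The size factor of m4 replicate 3 was 0.78 under the scaling used here, 1.06 under TMM and 0.50 under total counts. Without m4 replicate 3, only miR-3182 of the 7 stayed past the threshold, and 2 of all tested miRNAs passed as higher. The log2 fold change without that library was 1.31 for miR-3182 and ran from 0.47 for miR-10525-3p to 1.47 for miR-4645-3p over the others. Without wild type replicate 2, the library with the smallest size factor, 2 of the 7 passed, miR-3182 and miR-4645-3p, and without wild type replicate 1 it was 4 of the 7. Without m4 replicate 1 or m4 replicate 2 all 7 passed, and without wild type replicate 3 it was 6. Without m4 replicate 1, 26 of all tested miRNAs passed as higher. The log2 fold change of all 7 members stayed above 0 in each of these 6 fits, as the choice favours.

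**Figure D4:**
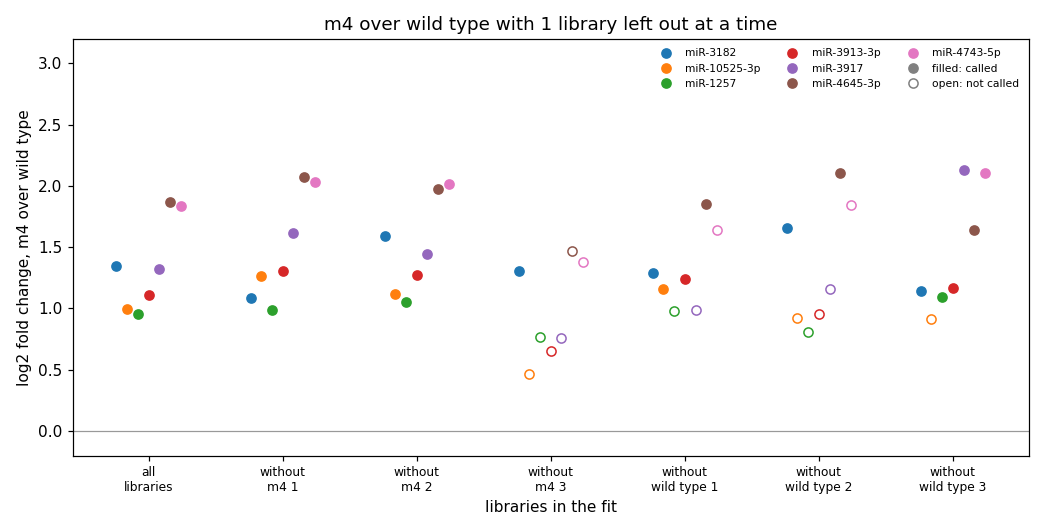
log2 fold change, m4 over wild type (y axis), of the 7 miRNAs with all libraries and with 1 m4 or wild type library left out (x axis). Filled points passed an adjusted p of 0.05 and open ones did not; without m4 replicate 3 only miR-3182 is filled.

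The members' patterns over the 12 libraries resembled one another to differing degrees. Pearson's r of log2(scaled reads + 1) ran from 0.19 to 0.84 over the 21 pairs of members, with a median of 0.66, and from 0.56 to 0.84 over the 15 pairs without miR-3182. These correlations share the size factors and, for every pair, the contrast of the choice, and describe the libraries only. The tested miRNA outside the set most like each member was miR-573 for miR-3182 (r = 0.84), miR-10523-5p for miR-10525-3p (r = 0.95) and miR-3191-5p for miR-1257 (r = 0.86). It was miR-4470 for miR-3913-3p (r = 0.89), miR-3190-3p for miR-3917 (r = 0.83), miR-659-5p for miR-4645-3p (r = 0.91) and miR-6811-5p for miR-4743-5p (r = 0.80).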

How the data were processed

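Per the submitters' processing notes, adapters were trimmed with cutadapt and reads mapped with Bowtie2, and hg38 is named as the build; the counter, its annotation, and the handling of strand and of reads mapping to several places are not given in the sources used here. The authors deposited 1 table of raw read counts per hairpin and mature name (1409 lines, 1286 mature names), in which 7220 of 16908 cells (42.7%) were blank and read as 0. Lines of the same mature name were collapsed to the one with most reads, and 9 pairs of differently named miRNAs whose reads matched (within 5 reads or 5%) were merged, leaving 1277 miRNAs. Counts were tested in R 4.3.3 with edgeR 4.0.16 (glmQLFit and glmQLFTest, 4 groups in 1 fit, filterByExpr, 310 tested, Benjamini-Hochberg adjustment over all of them), with size factors from the median ratio over 5 DROSHA-independent families with at least 20 reads in every library. Scaled reads are counts divided by these factors. DESeq2 1.42.0 was an alternative, and the edgeR fit was tested on simulated data. Hairpins were folded with RNAfold 2.7.2 at its default settings, and genes around each miRNA come from GENCODE 29. The 7 members and the lists were chosen with earlier results of these data known. Named are the members, the other arms of their hairpins, the tested miRNA most like each, the miRNAs past and next to the threshold of the choice, and the 2 most abundant of each list or fewer; the last miRNAs past or next to that threshold, miR-320d, miR-1260b and the short miRNAs of the closing section were named after their values were seen. miR-1257 had a mature sequence but no hairpin in the table used. Counting error and the spread between libraries both limit the precision of the members with few reads. An example is miR-4743-5p, with 2, 2 and 4 reads in the wild type libraries.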

Additional observations from a re-analysis of the deposited data

How the results depend on the processing

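Under all alternatives run, no member passed the test in either direction with the belt deletion against empty. In the fit of only those groups, 5 members were tested. All 7 members, or all that were tested, kept a positive difference between m4 and wild type, which restates the choice. The number of members called higher with m4 than with wild type was 7; it was 2 with no filter on low reads and 4 in the fit of only those groups, where 6 members were tested, and it ran from 1 to 7 when 1 library was left out. Over all miRNAs, 11 were higher in that comparison; the number was 133 under total counts, 43 under TMM, 39 under the size factors of DESeq2, 6 scaled by the sum of the reference families, 7 with that reference without miR-320, 6 with no filter and 7 in the fit of only those groups, and it ran from 2 to 26 with 1 library left out. Total counts also left 60 called lower, against 106. With the belt deletion against empty, 1 miRNA was called lower; the number was 33 under total counts, 42 under TMM, 34 under the size factors of DESeq2, 0 scaled by the sum of the reference families, 2 with that reference without miR-320 and 6 in the fit of only those groups, and it ran from 0 to 3 with 1 library left out. Of the members' single values under the alternatives, 7 between m4 and wild type (all under total counts), 16 between m4 and empty and 25 between wild type and empty moved by more than the spread between replicates, and 0 between the belt deletion and empty changed their call. By construction, the scalings shift all miRNAs, the missing filter tests 1277 miRNAs and the fit of only those groups has fewer libraries; further causes were not tested. The repeat numbers did not pair the libraries: deviations of same-numbered libraries correlated at -0.25 to 0.13 over 18 pairs, 2 of them over 0.1. With the number as a replicate block, 9 miRNAs were called higher and 103 lower with m4 than with wild type, 7 of the 9 being members, and 132 higher and 1 lower with the belt deletion than with empty, 0 of them members. Depth limits miR-3917, miR-4645-3p and miR-4743-5p most, with under 50 reads in every library.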

Other observations

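miR-3182 is annotated at 17 nt, shorter than the gel window, and the other tested miRNAs under 19 nt were looked at after that was seen. miR-1275 had 8, 71 and 35 reads with m4, 11, 30 and 4 with the belt deletion, 3, 2 and 7 with wild type and 3, 2 and 32 with the empty plasmid. miR-320e had 156, 7.39 and 248 scaled reads with m4, 24.6, 376 and 8.53 with the belt deletion, 1.189, 1.799 and 126.2 with wild type and 399, 3.48 and 17.3 with the empty plasmid. miR-1268a had 829 reads in 1 m4 library, 362 in 1 belt deletion library, 26 in 1 wild type library, 1 in 1 empty library and 0 in all others. The log2 fold changes, m4 over wild type, were 4.20 for miR-1268a, 2.91 for miR-1275 and 1.62 for miR-320e. They were 1.35 for miR-3182 and -0.38 for miR-4444, and of these miRNAs only miR-3182 was past the threshold of the choice. In the m4 group miR-1268a, miR-1275 and miR-320e varied between libraries more than miR-3182 did. miR-4444, with 3 to 13 reads in every library, was near the floor. The part of fragment length in the count of miR-3182 was not tested.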
